A study of Mus musculus with 14 samples.

Results

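The 10 genes described here belong to bone morphogenetic protein (BMP) signalling and its best known targets: the ligand genes Bmp4 and Bmp6, the antagonist gene Nog, the receptor gene Bmpr1b, the inhibitory Smad genes Smad6 and Smad7, and the Id genes Id1, Id2, Id3 and Id4. They were chosen by name, with earlier results of these data known, and they are 10 of the 29713 genes measured. The study sequenced RNA of mouse neural stem cells (NSC) grown in culture, all of strain OG2, in 14 libraries. In 12 of them, all at passage 8, the cells were undifferentiated or at day 2, day 4 or day 8 of differentiation, and at each of these 4 stages they had naloxone, an antagonist of opioid receptors, DAMGO, a peptide agonist of the mu opioid receptor that the labels spell Damgo, or the control treatment NC. The remaining 2 libraries were NSC at passage 13 and at passage 8 with no named treatment. No dose, exposure time or differentiation medium is stated in the sources used here. Each condition was 1 library, and nothing in the labels says that the libraries came from separate cultures or animals, so p-values measure only the spread among these libraries.

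BMP ligands are secreted factors that bring type I and type II receptor kinases together on the cell surface. The receptors phosphorylate Smad1, Smad5 and Smad9, which enter the nucleus with Smad4 and switch on target genes, among them the Id genes and the feedback inhibitors Smad6 and Smad7. Id proteins carry a helix-loop-helix domain but no DNA-binding region, and they hold basic helix-loop-helix factors such as the E proteins off DNA. In neural stem cells, BMP signalling is known for favouring astrocytes over neurons and oligodendrocytes and for keeping stem cells quiescent, and noggin, the product of Nog, binds BMP ligands and blocks them.

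All 7 neural stem cell markers (Nes, Sox2, Pax6, Msi1, Prom1, Vim and Fabp7) stood at a mean of at least 1 TPM (a level per transcript length, scaled to a common library total) at every stage. The summed level of 8 astrocyte markers was 606 to 635 TPM in undifferentiated libraries, 2570 to 2789 at day 2, 4361 to 4404 at day 4 and 9899 to 10590 at day 8. The summed level of 6 mitosis genes was 1759 to 1820 TPM in undifferentiated libraries and 16.5 to 20.6 TPM at day 8. In bulk RNA, a different number of cells of a type and a different amount of RNA per cell cannot be told apart. Estimated counts summed to between 4143030 and 9070533 per library. The floor for a gene without counts was set at 3 counts, which is 0.354 to 0.693 CPM (the count scaled to a common library total). Intervals and floors cover counting error only. The naloxone and DAMGO libraries of day 2 stood apart from the NC library of that day. Of 13144 genes tested, 2231 differed between them at an adjusted p under 0.05, against 1 in undifferentiated libraries and 0 in those of day 4 and of day 8. Some stage results, and the counts of genes for each drug over all stages, are also given without the NC library of day 2. The drug effect at day 2 could not be fitted without that library. The other results of day 2, those of the pathway lists among them, are given only with it.

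The promoter windows of Id2 and Id4 are shown because the 2 genes climbed together through differentiation, and that of Bmp4 because this gene had 0 counts in the early libraries. RefSeq windows of 250 bases before the start site (build GRCm38.p6) were found for 7 of the 10 genes, those of Id2, Id3, Id4, Bmp4, Bmp6, Smad6 and Bmpr1b. Id2 lies on the minus strand of chromosome 12. Its window lies inside the gene's own interval (chr12:25093799-25097140), so it is not sequence before the whole gene. Of its 250 bases, 161 lie in annotated untranslated or coding sequence, and the stretch chr12:25096254-25096342 holds the other 89. The windows of Id3 and Bmp6 also lie inside their genes, wholly in annotated untranslated or coding sequence (250 bases each). Those of Bmpr1b lie inside its gene too. Id4 lies on the plus strand of chromosome 13, with its window at chr13:48260866-48261115, and Bmp4 on the minus strand of chromosome 14, with its window at chr14:46390670-46390919. Capitals mark GGCGCC, a GC-rich motif bound by Smad proteins, in Id2 and Id4, and CACGTG, an E-box of the kind bound by basic helix-loop-helix factors, in Bmp4.
Id2: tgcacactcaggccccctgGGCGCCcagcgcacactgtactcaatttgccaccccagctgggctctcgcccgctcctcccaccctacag
Id4: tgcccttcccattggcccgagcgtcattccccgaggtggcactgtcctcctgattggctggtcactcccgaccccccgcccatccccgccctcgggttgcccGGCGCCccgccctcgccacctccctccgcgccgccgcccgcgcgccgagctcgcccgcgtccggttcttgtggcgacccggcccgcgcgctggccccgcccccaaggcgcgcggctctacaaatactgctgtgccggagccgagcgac
Bmp4: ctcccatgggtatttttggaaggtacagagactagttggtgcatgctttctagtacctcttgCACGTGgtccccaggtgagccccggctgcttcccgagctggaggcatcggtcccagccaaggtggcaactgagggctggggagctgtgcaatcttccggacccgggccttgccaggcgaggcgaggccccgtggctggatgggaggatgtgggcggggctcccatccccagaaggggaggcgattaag
The GC-rich motif is its own reverse complement. It began at position -231 of Id2 and -148 of Id4, counted from -1 at the base before the start site, and it was found in 9.59% of 32851 mouse promoter windows of this length. It was not in the windows of Id3, Bmp4, Bmp6, Smad6 or Bmpr1b. The E-box marked in Bmp4, also its own reverse complement, began there at -188 and in the Bmp6 window at -127, and 6.02% of all windows held it. The shorter Smad motif CAGAC, searched on both strands, was in 42.2% of all windows and in those of Id3, Bmp6 and Bmpr1b. Another E-box that equals its reverse complement, CAGCTG, was in 13% of all windows and in those of Id2 and Bmpr1b. These matches are descriptions of sequence and no evidence of binding.

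The comparison of stages asks how the pathway changed as the cells differentiated. Bmp6, Smad6, Id1, Id2, Id3 and Id4 reached their highest mean levels at day 8, and Nog, Bmp4, Smad7 and Bmpr1b theirs at day 4. In CPM, however, the day 4 libraries of Smad7 overlapped with those of day 8, and the day 4 libraries of Bmpr1b with those of day 2. Id1 and Id3 stood lower at day 4 than at day 2 and then climbed steeply, while Id2 and Id4 stepped up at every stage. Tests used the 12 libraries of the drug experiment, the 3 libraries of a stage standing in for its replicates, with adjusted p-values over all genes from edgeR's quasi-likelihood test and a threshold of 0.05. Against undifferentiated cells, 6 of the 10 genes rose and 0 fell at day 2, where 69.7% of the 13144 genes tested changed (33.7% rose and 35.9% fell). At day 4 8 rose and 1 fell, where 62.3% of genes changed (31.4% rose and 31% fell), and at day 8 9 rose and 0 fell, where 80.1% changed (41.6% rose and 38.5% fell). Between neighbouring days, 6 rose and 2 fell at day 4 against day 2 (51.9% of genes changed, 27.1% up and 24.8% down), and 6 rose and 3 fell at day 8 against day 4 (68.6% of genes changed, 37.1% up and 31.5% down). At day 2 the count of the 10 is below the share of all genes that changed, and at day 8 it is near it, while the number that rose stands above the share of all genes that rose at each day. Bmp4, Bmp6 and Smad6 had 0 counts in undifferentiated cells, so against these cells they could only rise. The 10 were also chosen with earlier results known, and no conclusion is drawn from the number that rose. Without the NC library of day 2, 7 of the 10 rose and 0 fell at day 2, 8 rose and 1 fell at day 4, and 9 rose and 0 fell at day 8. In that fit 4805, 4731 and 5671 of 13367 genes tested rose at day 2, day 4 and day 8. The median log2 change of the 10 genes was 2.02 at day 4 and 3.02 at day 8, with genes absent from undifferentiated cells set at their lower bound, against medians of -0.01 and 0.05 over all genes. All 10 passed the filter on low counts, Bmp4, Bmp6 and Smad6 through the stages at which they had counts.

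**Figure D1:**
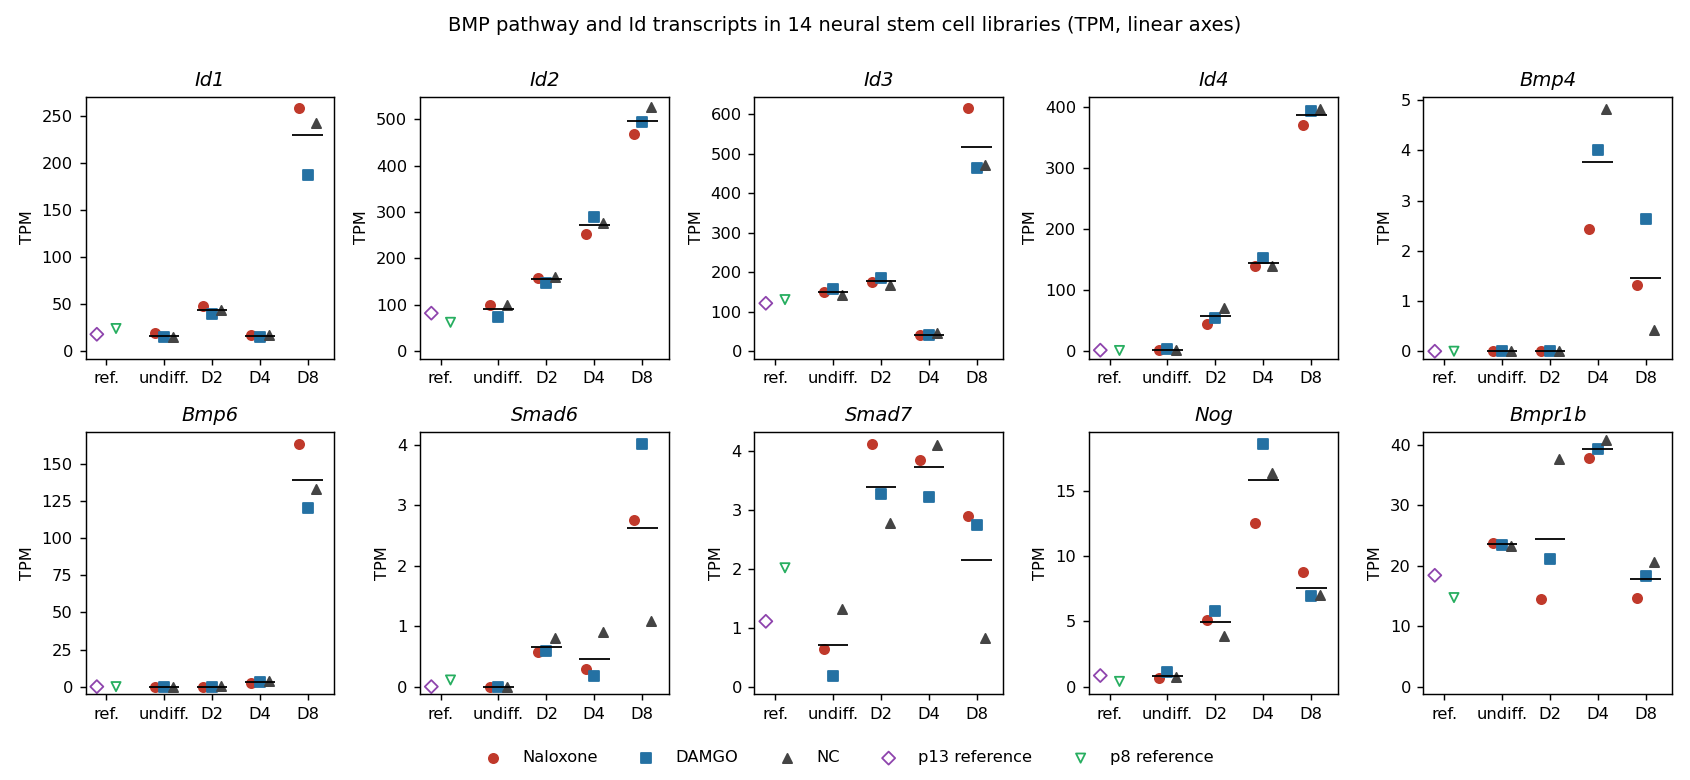
Level of each gene (TPM, linear axis that differs between panels) in the 14 libraries, by stage, with 1 point per library and a line at the mean of the 3 libraries of a stage; ref. marks the reference libraries of passage 13 and passage 8. Bmp6 reached 121 to 163 TPM at day 8, Id3 dipped to 40.3 to 45.6 TPM at day 4, and Nog was highest at day 4.

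Bmp6 encodes a secreted BMP ligand (chr13:38345107-38500302, plus strand, mm10). It had 0 counts in all 3 undifferentiated libraries and in both reference libraries, and a single count in the NC library of day 2. At day 4 it stood at 2.67 TPM with naloxone, 2.94 with DAMGO and 3.55 with NC. At day 8 it stood at 163 TPM with naloxone, 121 with DAMGO and 133 with NC. Every library of day 8 lay far above every library of day 4, and the day 4 libraries lay above all earlier ones. Bmp6 was at least 17.4-fold higher at day 4 than in undifferentiated cells, whose group floor of 3 counts equalled 0.182 CPM (adjusted p = 4.06e-05). Against day 2, with its 1 count, the ratio at day 4 was 64.4, with a 95% counting interval of 11.0 to 2592. The further rise at day 8 over day 4 was 5.90 ± 0.18 on the log2 scale (SE, adjusted p = 8.0e-08). At day 8 Bmp6 averaged 139 ± 22.0 TPM (SD, n = 3), a level per length next to Id1 at 230 ± 37.5 TPM.

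Bmp4, a ligand widely used to turn neural stem cells into astrocytes in culture (chr14:46383520-46390669, minus strand), stayed near the limit of detection. It had 0 counts in the 5 undifferentiated and reference libraries and in the 3 libraries of day 2. At day 4 it had 11 counts with naloxone, 15 with DAMGO and 22 with NC, or 2.44, 4.01 and 4.83 TPM. At day 8 it had 12 counts with naloxone, 7 with DAMGO and 2 with NC. Bmp4 was at least 16.7-fold higher at day 4 than in undifferentiated cells (adjusted p = 0.00188) and at least 20.6-fold higher at day 4 than at day 2 (adjusted p = 0.0026). In TPM the 2 days overlapped, with DAMGO at 2.63 at day 8 against naloxone at 2.44 at day 4. The day 8 libraries lay below the day 4 libraries without overlap in CPM, a fall of 1.51 ± 0.52 on the log2 scale (SE, adjusted p = 0.0414). That call was lost with DESeq2 (-1.66, adjusted p = 0.106) and in each fit that left out the DAMGO or the NC library of day 4 or of day 8, when the change ranged over -0.98 to -1.52.

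Of 15 other BMP and GDF ligand genes, 2 had enough counts to be tested, and they moved in opposite directions at all 3 days. Bmp7, a ligand of the same subgroup as Bmp6, averaged 104.9 ± 5.10 CPM in the undifferentiated libraries, 49.0 ± 3.53 CPM at day 2, 16.7 ± 0.625 CPM at day 4 and 12.4 ± 0.596 CPM at day 8 (SD, n = 3). It had fallen by 3.08 on the log2 scale at day 8, with an SE of 0.09 (adjusted p = 7.3e-10). Gdf11, a ligand of the activin branch, rose by 1.91 ± 0.08 on the log2 scale at day 8 (SE, adjusted p = 8.0e-09), with 114 ± 6.12 CPM against 30.4 ± 1.91 in undifferentiated cells.

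Nog, the gene of the BMP antagonist noggin (chr11:89300638-89302332, minus strand), had its highest level at day 4. In undifferentiated cells it stood at 0.65 TPM with naloxone, 1.10 with DAMGO and 0.77 with NC. At day 2 the levels were 5.12, 5.82 and 3.91 TPM in that order of treatments, at day 4 12.6, 18.6 and 16.4 TPM, and at day 8 8.81, 6.93 and 6.99 TPM. No library of a stage overlapped with those of a neighbouring stage in CPM. Nog rose by 2.56 ± 0.35 at day 2 and by 4.01 ± 0.31 at day 4 over undifferentiated cells on the log2 scale (SE, adjusted p = 8.8e-05 and 1.3e-06). The fall at day 8 against day 4, -0.64 ± 0.21 (SE, adjusted p = 0.0182), was lost with DESeq2 (-0.67, adjusted p = 0.0702) and in each fit that left out the DAMGO or the NC library of day 4 or of day 8, when it ranged over -0.45 to -0.64. It was -1.31 (adjusted p = 5.2e-05) once a trend on GC content and length had been removed from each library and -1.03 with TPM scaling. Nog stood 3.37 ± 0.32 higher at day 8 than in undifferentiated cells on the log2 scale (SE, adjusted p = 4.1e-06).

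Of 16 other antagonist genes 13 were tested, and 7 rose and 4 fell at day 2, 6 rose and 3 fell at day 4, and 8 rose and 2 fell at day 8 against undifferentiated cells. Their median log2 change at day 8 was 0.53, against 0.05 over all genes. The shares over all genes tested, to be set beside this and every other list, were 33.7% up and 35.9% down at day 2. They were 31.4% and 31% at day 4, and 41.6% and 38.5% at day 8. Fst, which encodes the activin and BMP trap follistatin, fell by 2.98 on the log2 scale at day 8, with an SE of 0.42. Fstl3, a relative of follistatin, had 61 counts at day 8 against 1 in undifferentiated cells, a ratio of 51.2 with a 95% counting interval of 8.86 to 2056. Fstl1 rose by 2.58 ± 0.11 and Dand5, a gene of the Cerberus and Dan family, by 2.81 ± 0.50 (SE). Chrdl1, a chordin-like antagonist, stood at 11.9 ± 6.51 CPM at day 2, against 64.8 ± 0.249 CPM in undifferentiated cells, and it stood at 55.1 ± 3.56 CPM at day 8 (SD, n = 3), a log2 change at day 8 of -0.24 that became 0.78 with the trend on GC content and length removed.

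Bmpr1b, a type I BMP receptor (chr3:141837136-142169425, minus strand), was expressed at every stage. In undifferentiated cells it stood at 23.8 TPM with naloxone, 23.4 with DAMGO and 23.2 with NC. At day 2 the libraries were spread widely, with 14.5 TPM with naloxone, 21.0 with DAMGO and 37.7 with NC. At day 4 they lay together at 37.8, 39.3 and 40.8 TPM, and at day 8 at 14.6, 18.3 and 20.6 TPM, in the same order of treatments. The day 4 libraries lay above all undifferentiated and day 8 libraries but below the NC library of day 2 in CPM. The rise at day 4 over undifferentiated cells was 0.59 ± 0.19 on the log2 scale (SE, adjusted p = 0.0191). It was lost without the DAMGO or NC library of undifferentiated cells and without the naloxone or DAMGO library of day 4, when it ranged over 0.46 to 0.58. The rise at day 4 over day 2, 0.49 ± 0.19 (adjusted p = 0.0485), was lost in 8 of the fits that left out a library, when it ranged over 0.26 to 0.49. It was 0.78 without the NC library of day 2 (adjusted p = 5.1e-05) and 0.09 once the trend on GC content and length had been removed (adjusted p = 0.479). The fall at day 8 against day 4 was 0.71 on the log2 scale with an SE of 0.19 (adjusted p = 0.00677), and it was -0.11 with that trend removed (adjusted p = 0.394) and -1.11 with TPM scaling. Against undifferentiated cells the log2 changes at day 2 and day 8, 0.10 ± 0.19 and -0.12 ± 0.19, did not pass the test. With the trend removed both were called, at 0.53 and 0.51 (adjusted p = 0.000656 and 0.000681), and both changed sign under some settings.

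Of 10 other receptor and co-receptor genes 8 were tested, and 3 rose and 2 fell at day 2, 3 rose and 0 fell at day 4, and 3 rose and 3 fell at day 8. Bmpr2, the type II receptor specific for BMP ligands, stood at 47.8 ± 12 CPM at day 8, against 249.2 ± 4.06 CPM in undifferentiated cells (SD, n = 3), and had fallen by 2.43 on the log2 scale with an SE of 0.33. The type II receptor genes Acvr2a and Acvr2b, shared with activin, fell by 2.84 and 1.37, with SEs of 0.32 and 0.31. Rgma, a co-receptor, rose by 2.28 ± 0.10 (SE). The type I receptor Bmpr1a, at 177 ± 31.8 CPM at day 8 and 227 ± 5.93 CPM in undifferentiated cells, did not pass the test (-0.38, adjusted p = 0.0667). With the trend on GC content and length removed, the change of Bmpr2 at day 8 was -0.11 (adjusted p = 0.175), that of Acvr2a -1.06, that of Acvr2b -2.17, and that of Bmpr1a turned to 0.31 (adjusted p = 0.00419).

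The inhibitory Smads were low throughout. Smad6, which blocks BMP receptor signalling (chr9:63953076-64022059, minus strand), had 0 counts in undifferentiated cells and 1 count in the passage 8 reference. It had 7, 5 and 8 counts at day 2 with naloxone, DAMGO and NC, 2, 1 and 7 counts at day 4, and 39, 18 and 10 counts at day 8. Every library of day 8 lay above all earlier ones in CPM, while the libraries of day 2 and day 4 overlapped. Against undifferentiated cells Smad6 was at least 5.39-fold higher at day 2, 3.47-fold higher at day 4 and 18.8-fold higher at day 8 (adjusted p = 0.00707, 0.0236 and 0.000285). The call at day 4 was lost without the NC library of that day, which held 7 of its 10 counts (fitted log2 change 3.83, adjusted p = 0.0707), and without the undifferentiated naloxone library (4.84, adjusted p = 0.0568). The rise at day 8 over day 4 was 2.34 ± 0.57 on the log2 scale (SE, adjusted p = 0.00613). At such counts the TPM also carries the length that RSEM assigned in each library: DAMGO stood above naloxone at day 8 in TPM (4.01 against 2.76), and below it in CPM (3.11 against 4.61).

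Smad7, the inhibitory Smad that acts on both the BMP and the TGF-beta branch (chr18:75367529-75395935, plus strand), had 8, 2 and 6 counts in undifferentiated cells with naloxone, DAMGO and NC. At day 2 it stood at 3.55, 2.34 and 2.90 CPM in that order, at day 4 at 4.6, 5.78 and 3.64 CPM, and at day 8 at 4.13, 2.77 and 2.06 CPM. In CPM each of these 9 libraries lay above the 3 undifferentiated ones, which stood at 0.351 to 1.38 CPM, and the libraries of day 8 overlapped with those of both earlier days. In TPM the NC library of day 8, at 0.82, lay below the undifferentiated NC library, at 1.32. On the log2 scale Smad7 rose by 1.58 ± 0.41 at day 2, 2.24 ± 0.40 at day 4 and 1.61 ± 0.41 at day 8 over undifferentiated cells (SE, adjusted p = 0.00622, 0.000682 and 0.00439). The last call was lost once the trend on GC content and length had been removed (0.75, adjusted p = 0.133). The change at day 8 against day 4, -0.62 ± 0.32, did not pass the test (SE, adjusted p = 0.109).

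All of 12 other Smads and Smad regulators were tested, and 4 rose and 2 fell at day 2, 8 rose and 3 fell at day 4, and 6 rose and 4 fell at day 8. Smad9, a signal-carrying Smad of the BMP branch, stood at 41.9 ± 3.34 CPM at day 8, against 1.62 ± 0.716 CPM in undifferentiated cells (SD, n = 3), and rose by 4.70 ± 0.25 on the log2 scale (SE, adjusted p = 5.1e-08). Smad9 had not passed the test at day 2 (-0.37, adjusted p = 0.426) and rose by 3.37 ± 0.22 at day 8 over day 4. Its partners Smad1 and Smad5 stood at 74.0 ± 4.30 and 222 ± 11.2 CPM at day 8, against 47.3 ± 2.84 and 382 ± 3.29 CPM in undifferentiated cells, log2 changes of 0.64 and -0.78 that became 0.26 and 0.06 with the trend on GC content and length removed, the second no longer called. Among genes of Smad corepressors, Skil fell by 2.44 with an SE of 0.30, while Ski rose by 1.59 ± 0.07 and Tgif1 by 1.68 ± 0.20 at day 8 (log2 scale). Skil stood at -1.01 with the trend removed.

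**Figure D2:**
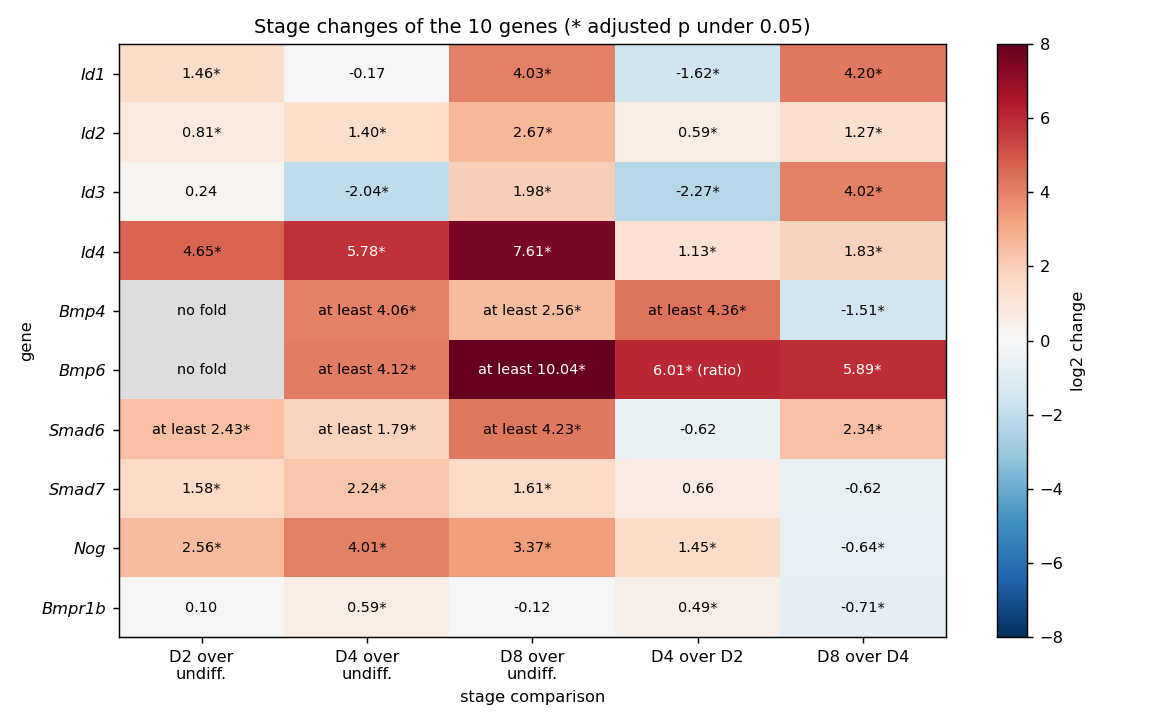
Log2 change of each gene (rows) in 5 stage comparisons (columns), with colour and printed value giving the change, an asterisk an adjusted p under 0.05, "at least" a lower bound against a group with 0 counts and grey a comparison in which both groups were at or under the floor. Id1 and Id3 are blue at D4 over D2 and red at D8 over D4 (4.20 and 4.02), while Id2 and Id4 are red in every column.

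The Id genes are the classical readout of BMP signalling, and they followed 2 patterns. Id1 (chr2:152736251-152737410, plus strand) stood at 19.2, 15.04 and 15.2 TPM in undifferentiated cells with naloxone, DAMGO and NC, at 47.6, 39.6 and 43.6 TPM at day 2, and at 16.9, 15.6 and 16.8 TPM at day 4. At day 8 it stood at 259, 188 and 243 TPM. The libraries of day 4 overlapped with the undifferentiated ones, those of day 2 lay above both, and those of day 8 lay above all others. Id1 rose by 1.46 ± 0.12 at day 2 over undifferentiated cells, fell by 1.62 at day 4 against day 2 with an SE of 0.12, and rose by 4.20 ± 0.11 at day 8 over day 4, all on the log2 scale (adjusted p = 2.4e-06, 6.7e-06 and 6.9e-09). At day 4 it did not differ from undifferentiated cells beyond the spread (-0.17 ± 0.14, adjusted p = 0.432).

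Id3 (chr4:136143497-136145755, plus strand) was the most abundant of the Id genes in undifferentiated cells per length, at 150 TPM with naloxone, 158 with DAMGO and 143 with NC. At day 2 it stood at 176, 186 and 168 TPM, at day 4 at 40.3, 40.6 and 45.6 TPM, and at day 8 at 616, 465 and 470 TPM, in the same order. The dip at day 4 separated all 3 of its libraries from those of every other stage. Id3 fell by 2.04 at day 4 against undifferentiated cells with an SE of 0.12 and then rose by 4.02 ± 0.13 at day 8 over day 4 on the log2 scale (adjusted p = 2.1e-07 and 1.4e-08). At day 8 it stood 1.98 higher than in undifferentiated cells, and 1.13 higher with the trend on GC content and length removed. The change at day 2 over undifferentiated cells, 0.24 ± 0.11, did not pass the test (adjusted p = 0.0778). It passed without the NC library of day 2 (0.33, adjusted p = 0.0213) and without the naloxone library of day 8 (0.24, adjusted p = 0.0437). With the trend on GC content and length removed it turned to -0.15 (adjusted p = 0.137).

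Id2 (chr12:25093799-25097140, minus strand) climbed at each step. It stood at 99.6, 73.6 and 100.2 TPM in undifferentiated cells with naloxone, DAMGO and NC, at 158, 147 and 160 TPM at day 2, at 253, 289 and 276 TPM at day 4, and at 469, 494 and 525 TPM at day 8. No libraries of neighbouring stages overlapped. The log2 changes over undifferentiated cells were 0.81 ± 0.11 at day 2, 1.40 ± 0.11 at day 4 and 2.67 ± 0.11 at day 8 (SE, adjusted p = 0.000105, 1.9e-06 and 9.4e-09).

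Id4 (chr13:48261228-48266026, plus strand), the Id gene linked to quiescence of neural stem cells, had the largest change of the 4 Id genes over the time course. It stood at 2.22, 2.94 and 1.57 TPM in undifferentiated cells with naloxone, DAMGO and NC, at 45.3, 55.0 and 70.6 TPM at day 2, at 140, 152 and 140 TPM at day 4, and at 369.9, 392.6 and 396.8 TPM at day 8. No libraries of neighbouring stages overlapped. Id4 rose by 4.65 ± 0.18 at day 2, 5.78 ± 0.18 at day 4 and 7.61 ± 0.18 at day 8 over undifferentiated cells on the log2 scale (SE, adjusted p = 1.4e-08, 2.1e-09 and 1.8e-10). Its rise at day 4 over day 2 was 1.13, and 0.56 with the trend on GC content and length removed. Per length, the order of the Id genes in undifferentiated cells was Id4, Id1, Id2 and Id3, with means of 2.24, 16.5, 91.1 and 150 TPM. At day 8 it was Id1, Id4, Id2 and Id3, with means of 230, 386, 496 and 517 TPM, and the libraries of Id2 and Id3 overlapped.

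Across the 14 libraries, the Pearson r of log2(TPM + 1) was 0.85 between Id1 and Id3 and 0.95 between Id2 and Id4, against 0.29 between Id2 and Id3 and 0.20 between Id3 and Id4. Bmp6 had an r of 0.85 with Id1, 0.88 with Id2, 0.58 with Id3 and 0.76 with Id4, and Nog an r of 0.90 with Id4 and -0.20 with Id3. The libraries share their stages, so these values describe the order of the stages and give no independent points. Among 11517 genes with a highest level of at least 5 TPM, the pattern most like that of Id4 was that of Ntrk2, the receptor of brain-derived neurotrophic factor (r = 0.997), and that most like Bmp4 was that of Mag, a myelin gene (r = 0.973). For Bmp6 it was Fth1, the ferritin heavy chain (r = 0.994), for Nog Tubb4a, a beta-tubulin (r = 0.992), for Id2 Micall2 (r = 0.992), for Id1 Cavin1, a coat protein of caveolae (r = 0.978), and for Id3 Actb, cytoplasmic actin (r = 0.962). For Bmpr1b it was Klhl24 (r = 0.970), for Smad6 Igtp, an interferon-induced GTPase (r = 0.931), and for Smad7 Fbxo31 (r = 0.928).

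Of 14 other genes known as BMP targets, 9 were tested, and 6 rose and 2 fell at day 2, 5 rose and 2 fell at day 4, and 7 rose and 2 fell at day 8. Their median log2 change at day 8 was 1.91, against 0.05 over all genes. With the trend on GC content and length removed, 5 rose and 2 fell at day 8, with a median of 1.47. Atoh8, a helix-loop-helix factor, had means of 0.407 CPM before differentiation, 5.83 CPM at day 2, 1.67 CPM at day 4 and 9.78 CPM at day 8 (n = 3), and rose by 4.48 ± 0.46 on the log2 scale at day 8. Msx1, a homeobox gene, rose by 3.70 ± 0.47 and Nrep by 2.15 ± 0.06 (SE). Zeb1, a zinc finger repressor, fell by 2.91 with an SE of 0.15. The list holds targets known from several tissues, and Zeb1 and Hes1 also answer to other pathways.

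Of 15 helix-loop-helix factors that Id proteins bind or that compete with them, 13 were tested, and 9 rose and 3 fell at day 2, 5 rose and 4 fell at day 4, and 4 rose and 6 fell at day 8. With the trend on GC content and length removed, 7 rose and 4 fell at day 2. In that setting 6 rose and 5 fell at day 4, and 5 rose and 7 fell at day 8. Tcf4, the gene of an E protein that Id proteins bind directly, stood at 99.7 ± 24.5 CPM at day 8, against 678 ± 10.5 CPM in undifferentiated cells (SD, n = 3), and fell by 2.81 on the log2 scale with an SE of 0.30. Hes5, a Notch target, rose by 2.52 ± 0.17 (1.58 with the trend on GC content and length removed) and Bhlhe22 by 2.86 ± 0.27 (SE). Nhlh1, a gene of young neurons, had 59 counts at day 8 against 1 in undifferentiated cells, a ratio of 49.6 with a 95% counting interval of 8.56 to 1990. Of 14 genes of the TGF-beta and activin branch 10 were tested, and 5 rose and 3 fell at day 2, 5 rose and 2 fell at day 4, and 5 rose and 3 fell at day 8. Tgfb2 rose by 2.07 ± 0.14, Ltbp3 by 1.91 ± 0.09 and Inha by 2.22 ± 0.39 at day 8 (SE; 1.36 for Inha with the trend removed), and the type I receptor gene Tgfbr1 fell by 2.35 with an SE of 0.26.

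**Figure D3:**
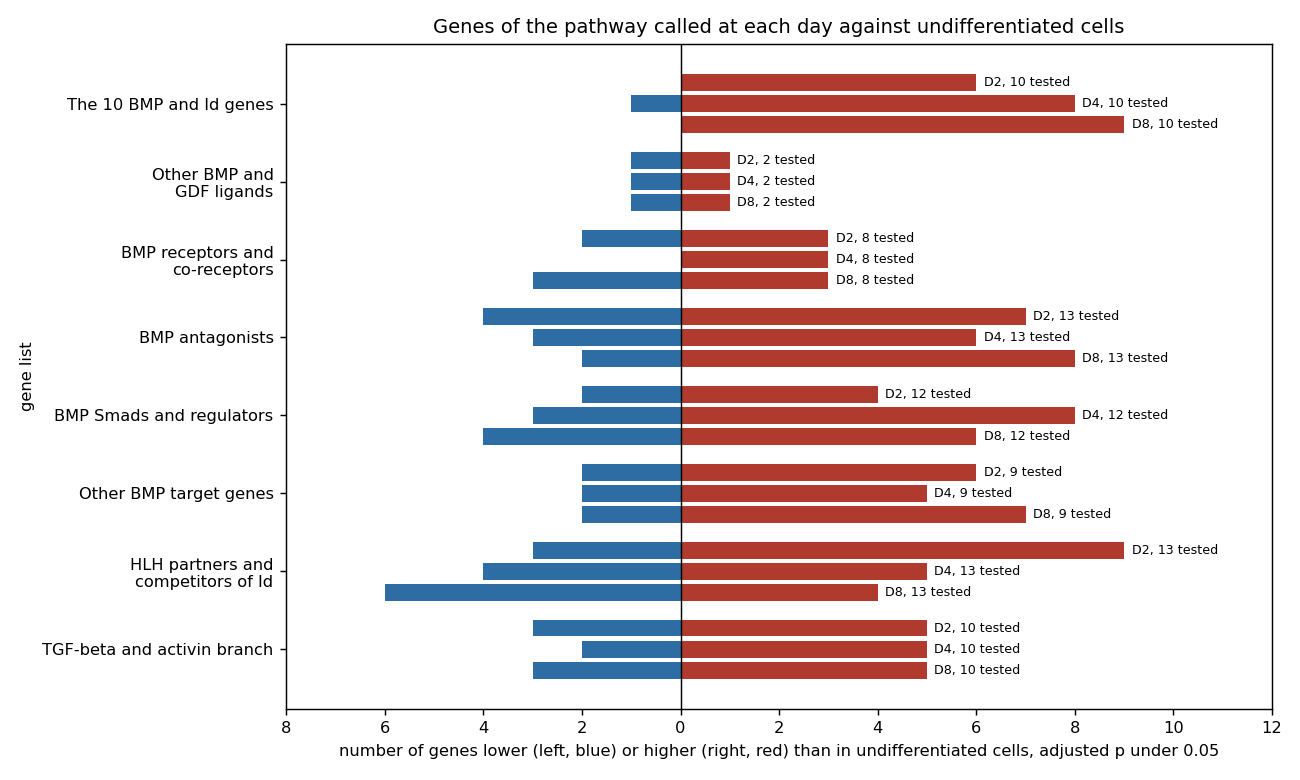
Number of genes that rose (red, right) or fell (blue, left) against undifferentiated cells at D2, D4 and D8, for the 10 BMP and Id genes and 7 lists of other pathway genes, with the number tested beside each bar (adjusted p under 0.05). Among the 13 helix-loop-helix factors tested, 9 rose and 3 fell at day 2, and 4 rose and 6 fell at day 8. Over all 13144 genes tested, 33.7% rose and 35.9% fell at D2, and 41.6% rose and 38.5% fell at D8.

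Markers of other cell types that make or answer to BMP ligands moved with the stages. The summed level of 9 pericyte and mesenchyme markers was 2.58 to 13.5 TPM in undifferentiated libraries, 51.5 to 59.6 at day 4 and 67.7 to 88.3 at day 8. A mean of at least 1 TPM was reached by 2 of the 9 in undifferentiated libraries, 4 at day 2, 4 at day 4 and 3 at day 8. Among the 9 markers, Pdgfrb stood at 97.8 CPM and Acta2 at 33.5 CPM at day 8. CPM is not per length, so the CPM of single genes here are not parts of the sums in TPM. That of 7 ependyma and choroid plexus markers was 4.05 to 6.03 TPM in undifferentiated libraries and 162 to 204 TPM at day 8, with Foxj1 at 226 CPM and with Ttr, Kl and Tmem212 at 0 counts. That of 9 endothelial markers was 1.97 to 2.52 TPM in undifferentiated libraries and 5.05 to 8.06 TPM at day 8, where Cdh5, Cldn5 and Erg had 0 counts. The 8 microglia and macrophage markers summed to at most 1.94 TPM in any library. The summed level of 6 oligodendrocyte precursor markers was 2328 to 2491 TPM in undifferentiated libraries, 3642 to 4084 at day 2, 3009 to 3086 at day 4 and 1141 to 1240 at day 8. That of 6 oligodendrocyte markers, Mag among them, was 82.5 to 84.8 TPM in undifferentiated libraries, 501 to 537 at day 2, 411 to 438 at day 4 and 310 to 347 at day 8. The 7 neuron markers summed to 558 to 573 TPM in undifferentiated libraries, 385 to 886 at day 2, 1013 to 1063 at day 4 and 250 to 306 at day 8. Nog, Bmp4, Smad7 and Bmpr1b also had their highest means at day 4, though libraries of Smad7 and Bmpr1b overlapped there with those of another stage. The part of these cell types in the levels of the BMP and Id genes was not tested.

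The drug comparisons ask whether naloxone or DAMGO altered these genes relative to NC. Over all stages together, none of the 10 genes passed the test for naloxone or for DAMGO, where 0% of the 13144 genes tested were called in either comparison. The other tools tried (limma-voom, DESeq2, and limma on TPM) called 0 genes too, and 1332 genes for naloxone and 314 for DAMGO had an unadjusted edgeR p under 0.05. Without the NC library of day 2 these edgeR counts were 531 and 195 of 13367 genes tested. With all 12 libraries, the smallest adjusted p among the 10 was 0.469 for naloxone, that of Bmpr1b (-0.45 ± 0.16 on the log2 scale), and 0.951 for DAMGO. For the Id genes the naloxone changes over NC were 0.14 ± 0.09 for Id1, -0.06 ± 0.09 for Id2, 0.13 ± 0.10 for Id3 and -0.19 ± 0.11 for Id4 (log2 scale, SE). The DAMGO changes over NC were -0.20 ± 0.10 for Id1, -0.12 ± 0.09 for Id2, 0.04 ± 0.10 for Id3 and -0.02 ± 0.11 for Id4. For Bmp6 they were 0.11 ± 0.19 with naloxone and -0.21 ± 0.19 with DAMGO.

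Within a stage, the naloxone and DAMGO libraries were set as 1 group against the NC library, with the spread given by the difference between the drugs. None of the 10 genes was called before differentiation (0.00761% of all genes called), nor at day 4 or day 8 (0% each, with 225 and 711 genes at an unadjusted edgeR p under 0.05). Limma-voom also called 0 genes at those 2 days. Without the DAMGO library of day 8, however, 912 genes were called at that day, and Id3 was among them, at 0.32 higher with naloxone than with NC on the log2 scale (adjusted p = 0.0343). That fit sets 1 library against 1 at day 8 and takes the spread from the other stages, and the DAMGO library left out stood at -0.07 against NC for Id3. At day 2 Bmpr1b was called and the other 9 genes were not, where 17% of all genes were called, 1.8% higher and 15.2% lower with the drugs. That split was 237 higher and 1994 lower, and it became 1244 higher and 963 lower once the trend on GC content and length had been removed. Bmpr1b stood at 40.8 CPM with naloxone and 56.8 CPM with DAMGO, against 93.9 CPM with NC, a fall of 0.96 on the log2 scale with an SE of 0.17 (adjusted p = 0.00159). The same contrast gave -0.08 before differentiation, -0.05 at day 4 and -0.33 at day 8. The difference between day 2 and the mean of the other stages was -0.81 ± 0.20 (adjusted p = 0.02), and 11.1% of all genes passed that test, 69 higher and 1392 lower, against 565 higher and 555 lower with the trend removed.

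Of the 67 other pathway genes tested, each counted once, 12 fell (17.9%) and 1, Olig1, rose (0.27 ± 0.08) with the drugs at day 2, shares close to the 15.2% and 1.8% over all genes. Bmpr2 fell by 1.58, Acvr2a by 1.37 and Bmpr1a by 0.89 on the log2 scale against NC, with SEs of 0.16, 0.22 and 0.14 (adjusted p = 0.000107, 0.000926 and 0.00095). With the trend on GC content and length removed, 3 of the 67 fell and 4 rose, and the values were -0.07 for Bmpr2, -0.27 for Acvr2a and -0.33 for Bmpr1a (adjusted p = 0.714, 0.316 and 0.0256). Among the 10 genes, Id4 had 37.3 CPM with naloxone and 44.8 CPM with DAMGO, against 53.8 CPM with NC, and did not pass the test (-0.40 ± 0.14, adjusted p = 0.0706). It passed without the DAMGO library of day 2 (-0.53, adjusted p = 0.0409) and without the naloxone or DAMGO library of day 8 (-0.41 each), and it turned to 0.19 (adjusted p = 0.433) once the trend on GC content and length had been removed.

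The NC condition of day 2 was 1 library, so that treatment and library cannot be told apart there. Across 11164 genes, the log2 difference between the drug libraries and the NC library of day 2 had a Pearson r of 0.607 with GC content and of -0.423 with log length, which is across genes and not across samples. Bmpr1b transcripts are longer than those of 85.6% of these genes, and 26% of the genes have a lower GC content. With a trend on GC content and length removed from each library, the Bmpr1b difference at day 2 was -0.46 (adjusted p = 0.0131), and its difference from the other stages was -0.36 (adjusted p = 0.138). That difference from the other stages also missed the threshold without the naloxone or the DAMGO library of undifferentiated cells (-0.80 and -0.82, adjusted p = 0.0595 and 0.0541) and without the naloxone library of day 2 (-0.58, adjusted p = 0.112). The summed level of the 7 neuron markers at day 2 was 385 TPM with naloxone and 479 TPM with DAMGO, against 886 TPM with NC, the same order as for Bmpr1b. For the 6 oligodendrocyte markers the sums were 501 TPM with naloxone, 537 TPM with DAMGO and 511 TPM with NC, another order. The part of neurons and of library composition in the Bmpr1b difference was not tested.

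**Figure D4:**
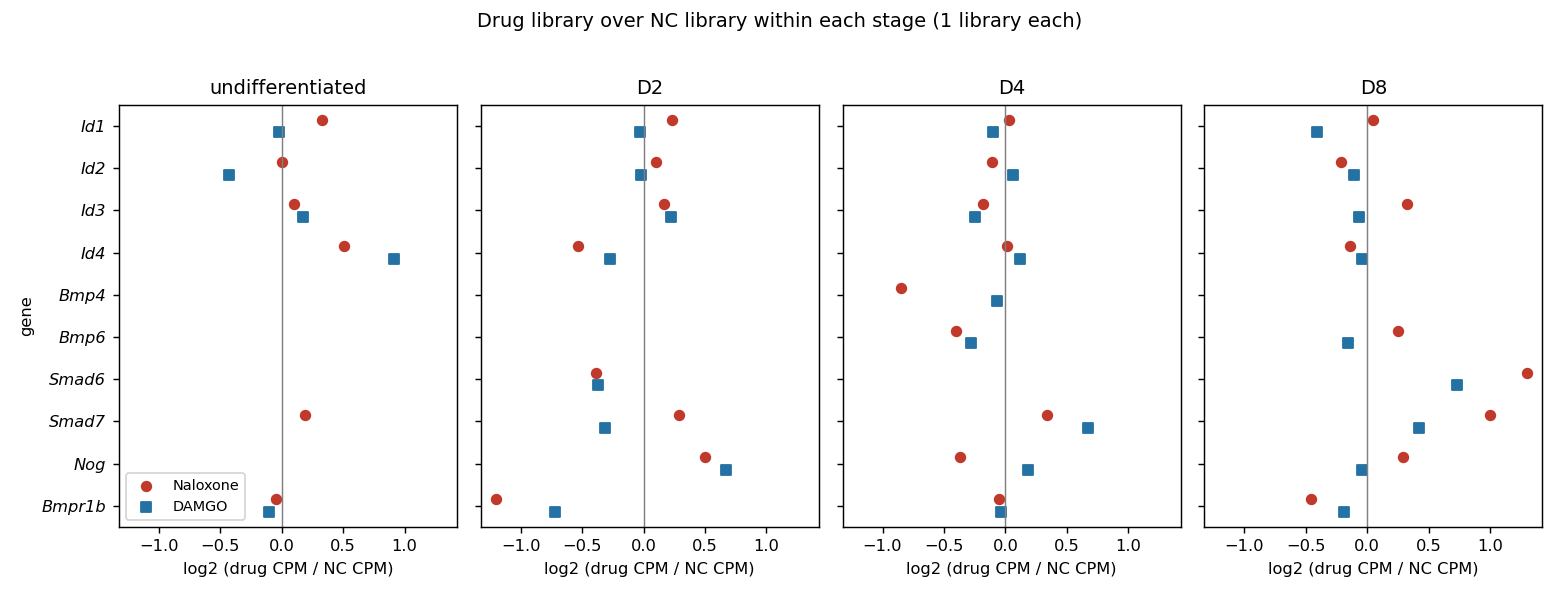
Log2 ratio of CPM in the naloxone library (circles) and the DAMGO library (squares) over the NC library of the same stage, for each gene and stage, with 1 library each and no error bar; ratios with a library at 3 counts or fewer are not drawn. Bmpr1b at D2 lies at -1.2 with naloxone and -0.72 with DAMGO, and Smad6 and Smad7 at D8, with 10 to 39 counts a library, lie to the right of 0.

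The passage 13 and passage 8 reference libraries were compared to ask whether passage altered these genes. None of the 10 genes was called, where 0.0217% of 13855 genes were. With 1 library a passage, the spread was assumed to be that of the drug experiment. Id2 stood at 81.9 TPM at passage 13 and 62.2 at passage 8 (0.37 ± 0.20 on the log2 scale, adjusted p = 1.0), Id1 at 18.1 and 24.2 TPM (-0.44 ± 0.21), and Id3 at 121 and 131 TPM (-0.11 ± 0.19). Bmpr1b stood at 18.4 TPM at passage 13 and 14.7 at passage 8, and Bmp4 and Bmp6 had 0 counts in both. The Id2 level of the passage 8 reference lay below those of all 3 undifferentiated libraries of the same passage, which stood at 73.6 to 100.2 TPM, and its Id1 level lay above their 15.04 to 19.2 TPM.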

How the data were processed

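TruSeq libraries were prepared from total RNA, per the labels' protocols. The submitters' processing notes name Bowtie, RSEM and mm10, and give no version. Per the file headers, the deposited files hold expected counts with TPM and FPKM values for every gene. FPKM was not used. The authors' expected counts, not whole for 10.4 to 13.1% of genes, were rounded, and RSEM divides reads shared by related genes. GENCODE vM21 gave names for 29202 of 29713 identifiers, and positions.

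Stages and drugs were tested with edgeR's quasi-likelihood test on counts of 12 libraries (TMM, its filter on low counts, 13144 genes, additive stage and treatment, 6 residual degrees of freedom). Drugs within a stage were tested in a stage by drug-or-NC fit with 4 residual degrees of freedom, and passages in a fit of all 14 libraries. Adjustment was by Benjamini-Hochberg over all genes tested, two-sided. CPM uses TMM totals. A trend on GC content and length was fitted with mgcv within each library. Other pathway genes were named by size, up to 4 past the threshold per list at day 8. The 10 genes and all lists were chosen with earlier results of these data known. Nearest patterns used log2(TPM + 1). The code was tested on simulated data. Tools were edgeR 4.0.16, DESeq2 1.42.0, limma 3.58.1 and mgcv 1.9.3 in R 4.3.3.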

Additional observations from a re-analysis of the deposited data

Results flagged for a closer look

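Bmpr1b was flagged because its difference between the drug libraries and the NC library was not alike across stages: at day 2 it stood apart from the mean of the other 3 stages by -0.81 on the log2 scale (edgeR, adjusted p = 0.02, lower with naloxone and with DAMGO). The value rests on 1 NC library of day 2, and 11.1% of all genes passed the same test.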

How the results depend on the processing

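Of 1020 recomputed log2 changes of the 10 genes over 51 gene and comparison pairs, 964 kept their direction and their side of the threshold, 33 lost the call, 11 gained it and 12 changed sign. The signs that changed were those of Id3 at day 2 over undifferentiated cells with the GC and length trend removed (-0.15), Bmpr1b at day 2 over undifferentiated cells with limma on log2(TPM + 1) (-0.05) or log2(TPM + 0.1) (-0.06), without the undifferentiated NC library (-0.03) and without the NC library of day 2 (-0.15; -0.15 to 0.33 over all fits with a library left out), Id1 at day 4 over undifferentiated cells with TPM scaling (0.02) and both limma fits (0.01 each), Bmpr1b at day 8 over undifferentiated cells with the trend removed (0.51, adjusted p = 0.000681), with the passage 8 reference added (0.04) and without the undifferentiated naloxone library (0.02; -0.24 to 0.02 over all such fits), and Id4 with the drugs at day 2 with the trend removed (0.19). With limma on log2(TPM + 1) Smad6 lost its calls at day 2 (0.73) and day 4 (0.51). Bmpr1b at day 2 over undifferentiated cells was called with the trend removed (0.53), and Smad7 at day 8 against day 4 with TPM scaling (-1.02) and with the trend removed (-1.36).

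Genes called for passage 13 against passage 8, 3 in the fit reported, were 7 with TPM scaling, 7 with no filter on low counts, 0 and 22 with limma at pseudocounts of 1 and 0.1, 10 with the trend removed, and 0 to 17 with a library left out. For either drug against NC, with no filter they were 25 before differentiation, 27 at day 4 and 247 at day 8. With limma-voom they were 0 in undifferentiated cells. With the trend removed they were 3 in undifferentiated cells and 1 at day 4. With a library left out they ranged over 0 to 2 before differentiation, 1233 to 3729 at day 2, 0 to 1 at day 4, 0 to 912 at day 8 and 608 to 2921 for day 2 against the other stages, and over 0 to 2 for DAMGO in all stages. Of the 10 genes, 1 to 2 were then called at day 2, 0 to 1 at day 8 and 0 to 1 for day 2 against the other stages, where 0 were called with the trend removed. Without the NC library of day 2 the drug effect at day 2 could not be fitted. TPM scaling moved the median of all genes to 0.19 at day 4 over undifferentiated cells, -0.15 at day 8 over undifferentiated cells, 0.22 at day 4 over day 2 and -0.32 at day 8 over day 4. The split of all genes into higher and lower calls became 5214 and 2976, against 4122 and 4070 with TMM, at day 4 over undifferentiated cells, 4668 and 5791, against 5470 and 5062, at day 8 over undifferentiated cells, 5154 and 1724, against 3564 and 3260, at day 4 over day 2, and 2681 and 6377, against 4880 and 4142, at day 8 over day 4. With the GC and length trend removed, the split for the drugs against NC at day 2 became 1244 and 963, against 237 and 1994. The cause of these shifts was not tested. No paired analysis was possible because the labels give no replicate numbers. Stage is already a term of the drug comparisons, so naloxone and DAMGO are set against NC within stages.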
